A study of Homo sapiens with 6 samples.

Results

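Wnt ligands, Frizzled receptors and Wnt target genes were followed in T24, a human bladder urothelial carcinoma cell line, with and without TGF-β1. The 10 genes were chosen by name as rows of the series' expression table, 10 of its 58735 gene rows: the ligands WNT5A, WNT7B and WNT9A, the receptors FZD2, FZD6, FZD7 and FZD8, the co-receptor LRP6, and AXIN2 and DKK1, which are both inhibitors and targets of the pathway. For 3 libraries TGF-β1 was added (10 ng/ml, 48 h), and 3 control libraries came from cells without it; all are labelled wild type and day 2. Both groups grew in medium with 10% fetal bovine serum. TGF-β1 is a secreted cytokine that signals through receptor kinases and SMAD transcription factors. The labels do not say whether replicates were separate cultures. The p-values set the group difference against the spread between these libraries, which may thus be technical. The unit is FPKM, a fragment count divided by the gene's length and the library's size, which allows levels of different genes to be compared.

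Wnt proteins are secreted lipid-modified ligands. When a ligand binds a Frizzled receptor together with LRP5 or LRP6, a cytoplasmic complex built on AXIN and APC stops marking β-catenin for destruction, and β-catenin then acts with TCF/LEF factors in the nucleus. Other Wnt proteins, WNT5A and WNT5B among them, are best known for routes that do not need β-catenin and that use receptors such as ROR1, ROR2 and RYK. DKK1 is a secreted protein that binds LRP5 and LRP6 and blocks them, and AXIN2 is a scaffold of the destruction complex whose gene is widely used as a readout of β-catenin activity. In epithelia, Wnt and TGF-β signals are both studied in epithelial-to-mesenchymal transition.

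Each library held between 20703945 and 23678772 fragments assigned to genes with a unique symbol, and 93.5 to 95.5% of its reads mapped. The cytokine's known responders SMAD7, PMEPA1 and SKIL all rose; SMAD7, an inhibitor of TGF-β signalling, averaged 6.39 ± 0.932 FPKM with TGF-β1 and 2.35 ± 0.300 FPKM in controls (SD, n = 3 each, as for every mean below). The keratins KRT8 and KRT18 were high, but of 14 urothelial and epithelial markers 8 stayed under 1 FPKM in every library, and KRT5, KRT19 and UPK3A had 0 fragments. Of the 6 tested, 0 passed in limma and 3 were at an unadjusted p under 0.05, where 25.1% of all genes tested were. By voom, limma's method for counts run on recovered fragments, 2 passed, where 8.24% of all genes did (the test is described with the members below). That list summed to 413 to 444 FPKM with TGF-β1 and 477 to 644 FPKM in controls. Most of the sum was KRT8 (188 ± 3.01 and 222 ± 26.4 FPKM in the same order) and KRT18 (227 ± 13.4 and 322 ± 55.1 FPKM), so it does not stand for the other markers. Of the 6 tested markers 5 had negative log2 changes and 1, FOXA1, a positive one (2.89 ± 0.114 and 2.82 ± 0.332 FPKM). The part of these markers in the Wnt gene differences was not tested. All fibroblast, immune and endothelial markers examined (6, 5 and 4 genes) stayed under 1 FPKM in every library. Control 3 stood apart: it was the control library nearest the TGF-β1 mean for 64.7% of 11363 genes tested. The calls that turned without it are given below.

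The start-site windows of the 3 members discussed most below are printed here: WNT9A, which was called higher, FZD8, which was called lower, and DKK1, a β-catenin target that just missed the threshold. Each holds 250 bases before and 50 bases after the RefSeq start on GRCh38.p14, written 5′ to 3′ on the gene's strand. Capitals mark matches, on either strand, to the SMAD box CAGAC, the palindromic SMAD element GTCTAGAC, the TCF/LEF motifs CTTTGAT and CTTTGTT, the AP-1 motif TGACTCA or the TATA box TATAAA. No 2 of the marked matches overlap.
WNT9A, chr1:227947883-227948182, minus strand: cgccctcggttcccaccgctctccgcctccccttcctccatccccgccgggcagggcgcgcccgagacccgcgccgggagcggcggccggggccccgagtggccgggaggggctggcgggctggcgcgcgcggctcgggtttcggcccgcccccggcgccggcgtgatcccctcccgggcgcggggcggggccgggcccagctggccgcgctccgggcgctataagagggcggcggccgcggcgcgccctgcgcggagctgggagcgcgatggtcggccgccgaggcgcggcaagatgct
FZD8, chr10:35642247-35642546, minus strand: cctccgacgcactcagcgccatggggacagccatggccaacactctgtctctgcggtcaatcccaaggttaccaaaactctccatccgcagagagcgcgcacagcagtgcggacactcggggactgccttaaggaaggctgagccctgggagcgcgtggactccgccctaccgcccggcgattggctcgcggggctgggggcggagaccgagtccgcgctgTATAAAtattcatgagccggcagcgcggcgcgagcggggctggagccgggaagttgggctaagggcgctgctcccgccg
DKK1, chr10:52314031-52314330, plus strand: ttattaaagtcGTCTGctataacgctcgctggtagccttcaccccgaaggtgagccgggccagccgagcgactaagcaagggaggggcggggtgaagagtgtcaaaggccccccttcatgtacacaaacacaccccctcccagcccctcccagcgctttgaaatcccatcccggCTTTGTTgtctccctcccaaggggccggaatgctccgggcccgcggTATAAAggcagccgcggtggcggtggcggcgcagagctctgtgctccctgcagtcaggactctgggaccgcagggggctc

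The DKK1 window held a TCF/LEF match starting 76 bases before the start, which 7.61% of 35116 RefSeq start-site windows also held (either motif). It also held a SMAD box at 239 bases, a motif of 45.3% of windows, and a TATA box at 30 bases. The FZD8 window held only a TATA box, at 29 bases, found in 11.5% of windows. The WNT9A window held none of the letters searched and was 83.0% G and C, more than 99.2% of windows, against a median of 58.7%. The palindromic SMAD element and the AP-1 motif, in 0.202% and 4.95% of windows, were in none of the 3. A match describes the letters and does not show a bound site.

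Of the 10 members, 8 reached the level needed for the test, at least 1 FPKM in at least 3 libraries, and 2 of these passed it. By voom 3 passed, where voom called 8.24% of all genes it tested. WNT9A rose and FZD8 fell. The test was limma on log2(FPKM + 1), adjusted by the Benjamini-Hochberg method over all 11363 genes with a threshold of 0.05, and every adjusted p below comes from it unless another setting is named. Over all genes tested 2.44% passed, 1.14% higher and 1.29% lower. The members and the lists below were chosen with earlier results of these data known. Their counts beside such shares are therefore no test of the genes as a set. WNT7B and DKK1 had adjusted p-values just above the threshold. WNT5A and AXIN2 were too low to be tested. The tested members' log2 changes had a median of -0.0035, against 0.012 over all genes tested, with 4 positive and 4 negative.

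**Figure D1:**
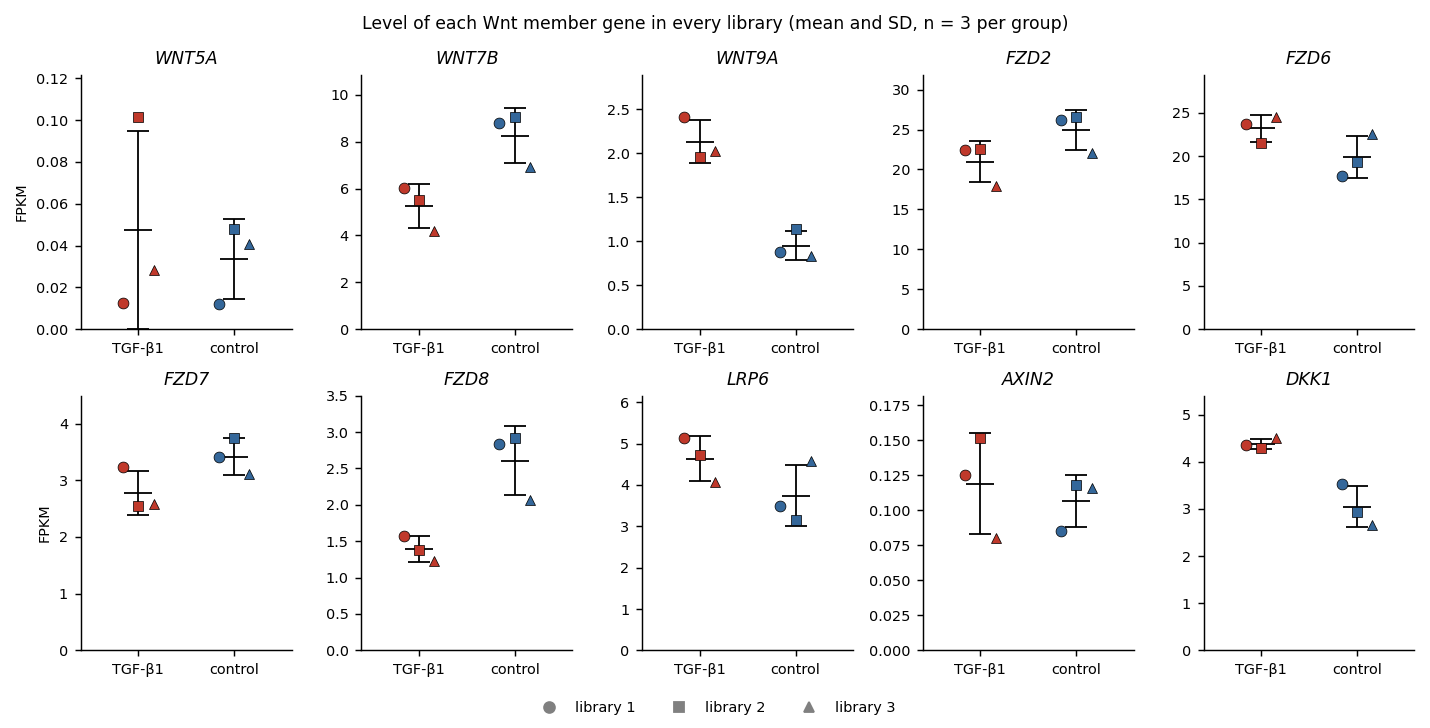
FPKM of each of the 10 member genes (y axis, from 0, with its own scale per gene) in the 3 TGF-β1 and the 3 control libraries; symbols are libraries, and bars show the mean and SD of 3. The groups do not overlap for WNT9A, DKK1, WNT7B and FZD8, while WNT5A and AXIN2 stay under 0.16 FPKM throughout.

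By level, FZD2 and FZD6 led, and their means over all 6 libraries lay close together. FZD2 averaged 21.0 ± 2.59 FPKM with TGF-β1 and 24.9 ± 2.55 FPKM in controls, and FZD6 23.2 ± 1.55 and 19.9 ± 2.45 FPKM in the same order. With TGF-β1 they did not differ beyond their spread. In controls the FZD2 mean was higher by more than the SDs, but in control 3 FZD6, at 22.6 FPKM, was above FZD2, at 22.0 FPKM. WNT7B came next, followed by LRP6, DKK1 and FZD7 by the mean of all 6 libraries. In controls FZD7 (3.42 ± 0.320 FPKM) was above DKK1 (3.05 ± 0.437 FPKM), though not in control 1. The means of LRP6 and DKK1 differed by less than the SD of LRP6 in both groups. FZD8 and WNT9A stood lower, and their order differed by group: with TGF-β1 WNT9A was above FZD8, and in controls FZD8 was above WNT9A. AXIN2 and WNT5A were last.

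Among the ligands, WNT9A was the member with the clearest difference. WNT9A encodes a Wnt protein known from joint and limb development, and the gene lies on chromosome 1 at 227918656 to 227947898. It stood at 2.41, 1.95 and 2.03 FPKM in the TGF-β1 libraries, against 0.878, 1.14 and 0.828 FPKM in the control libraries. All TGF-β1 values lay above all control values. As in any bulk sample, more cells with the transcript and more transcript per cell cannot be told apart. The group means were 2.13 ± 0.247 and 0.947 ± 0.165 FPKM, a ratio of 2.25 of TGF-β1 over control. On the log2(FPKM + 1) scale, where changes of low genes appear too small, the log2 change was 0.69 (SE 0.11, 95% interval 0.45 to 0.92, adjusted p = 0.0077). The counts behind it were 582 fragments over the TGF-β1 libraries and 256 over the controls. The WNT9A call held whichever library was left out (adjusted p 0.011 to 0.042). It was lost only when all 28285 genes above 0 were tested (adjusted p = 0.13). WNT9A passed the filter with 4 libraries at 1 FPKM, the 3 with TGF-β1 among them; with a filter on the mean of all 6 libraries its adjusted p was 0.0069.

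WNT7B, a ligand of epithelia that can act through β-catenin, lies on chromosome 22 at 45920362 to 45977129. It stood at 6.03, 5.51 and 4.21 FPKM with TGF-β1, against 8.82, 9.06 and 6.92 FPKM in controls. The lowest TGF-β1 library was library 3, and control 3 was the control nearest the TGF-β1 group, but the groups did not overlap. The log2 change was -0.57 (SE 0.13, 95% interval -0.86 to -0.28, adjusted p = 0.053), which missed the threshold. WNT7B passed in 6 of 16 alternatives, among them without control 3 (adjusted p = 0.014) and by voom (adjusted p = 0.011), and the adjusted p ranged from 0.011 to 0.36 over all 16.

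WNT5A, the textbook ligand of β-catenin-independent signalling, was close to absent. Its fragments numbered 2, 18 and 5 in the TGF-β1 libraries and 2, 8 and 7 in the controls, no more than 0.101 FPKM. The ranges of the groups overlapped. At this depth a change in WNT5A was not detectable, and in the fit without a filter its adjusted p was 0.82.

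The wider ligand family put these members in proportion. Of 19 ligand genes 5 had 0 fragments in every library, which allows up to 3 fragments each at the 95% level, for counting error only, and 4 were tested. WNT5B, a close relative of WNT5A named after its values were seen, was by far the highest, at 50.4 ± 2.02 FPKM with TGF-β1 and 42.5 ± 5.91 FPKM in controls (log2 change 0.25, adjusted p = 0.20). It supplied 81.0 ± 1.67% of the summed ligand FPKM with TGF-β1 and 76.5 ± 0.759% in controls. WNT7B supplied 9.28, 9.24 and 6.80% of that sum with TGF-β1, against 15.3, 14.8 and 14.6% in controls. WNT9A supplied 3.71, 3.27 and 3.27%, against 1.52, 1.85 and 1.75%. All TGF-β1 shares of WNT7B lay below, and all of WNT9A above, the control shares. The sum itself overlapped between groups, at 62.2 ± 2.68 and 55.5 ± 7.27 FPKM. WNT3, a ligand that acts through β-catenin, stood at 2.28 ± 0.221 FPKM with TGF-β1 and 1.69 ± 0.235 FPKM in controls (log2 change 0.29, adjusted p = 0.14).

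**Figure D2:**
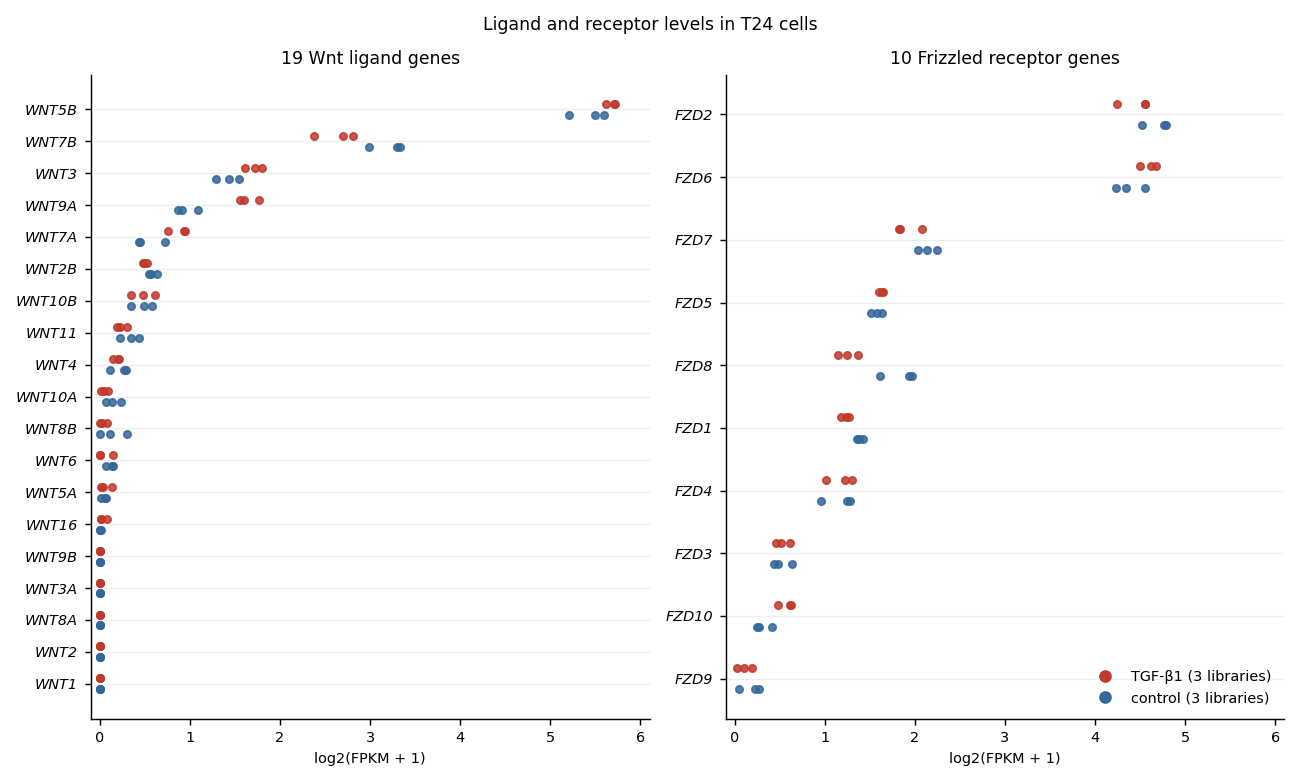
Level of the 19 Wnt ligand genes (left) and 10 Frizzled genes (right), as log2(FPKM + 1) on the x axis, with a point per library, TGF-β1 above control in each row. WNT5B leads the ligands and FZD2 and FZD6 lead the receptors in both groups, while most ligands lie near 0.

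Of the Frizzled receptors, FZD8 fell. FZD8 is a receptor able to signal through β-catenin, and its gene is on chromosome 10 at 35638249 to 35642278. Its values were 1.58, 1.38 and 1.22 FPKM in the TGF-β1 libraries, against 2.84, 2.92 and 2.06 FPKM in the controls. The groups did not overlap, and control 3 lay nearest the TGF-β1 group. FZD8 averaged 1.39 ± 0.178 FPKM with TGF-β1 and 2.61 ± 0.473 FPKM in controls, a ratio of 0.534 (log2 change -0.59, SE 0.12, 95% interval -0.85 to -0.32, adjusted p = 0.028). The call rests on 386 fragments over the TGF-β1 and 714 over the control libraries. It was lost without TGF-β1 2 (adjusted p = 0.083), TGF-β1 3 (0.10), control 1 (0.14) or control 2 (0.11), and with no filter (0.28), and it held in the other 11 alternatives. FZD8 supplied 2.57 ± 0.207% of the summed FPKM of the 10 Frizzled genes with TGF-β1 and 4.61 ± 0.795% in controls.

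FZD2 and FZD6 together made up most of the Frizzled sum, 81.7 ± 0.502% with TGF-β1 and 79.3 ± 0.706% in controls. FZD2, on chromosome 17 at 44557459 to 44559570, stood at 22.4, 22.5 and 18.0 FPKM with TGF-β1, against 26.3, 26.6 and 22.0 FPKM in controls. The groups overlapped at control 3 (log2 change -0.24, 95% interval -0.50 to 0.01, adjusted p = 0.22). FZD6, a receptor known for planar cell polarity in skin and hair of mice, stood at 23.7, 21.5 and 24.5 FPKM with TGF-β1, against 17.7, 19.4 and 22.6 FPKM in controls. Here too control 3 lay within the range of the TGF-β1 libraries (log2 change 0.22, 95% interval -0.02 to 0.46, adjusted p = 0.22). The ratio of FZD6 to FZD2 was 1.06, 0.955 and 1.36 with TGF-β1, against 0.676, 0.729 and 1.03 in controls, with control 3 again inside the TGF-β1 range. FZD7, on chromosome 2 at 202034587 to 202038445 and closely related to FZD2, stood at 3.23, 2.54 and 2.57 FPKM with TGF-β1, against 3.40, 3.74 and 3.11 FPKM in controls. Its groups overlapped as well (log2 change -0.23, 95% interval -0.46 to 0.01, adjusted p = 0.21).

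LRP6, a co-receptor of β-catenin signalling as LRP5 is, lies on chromosome 12 at 12116025 to 12267012. It stood at 5.13, 4.72 and 4.06 FPKM with TGF-β1, against 3.50, 3.15 and 4.57 FPKM in controls. Control 3 lay within the TGF-β1 range (log2 change 0.26, 95% interval -0.02 to 0.53, adjusted p = 0.22). LRP5, its relative, was higher per length, at 18.4 ± 1.15 FPKM with TGF-β1 and 21.3 ± 1.36 FPKM in controls (log2 change -0.20, adjusted p = 0.21). The ratio of LRP6 to LRP5 was 0.267, 0.251 and 0.238 with TGF-β1, against 0.155, 0.147 and 0.23 in controls. Its groups did not overlap, with control 3 just under the lowest TGF-β1 library. ROR1, a receptor for WNT5A and no member, stood at 5.86 ± 0.543 FPKM with TGF-β1 and 3.87 ± 0.684 FPKM in controls (log2 change 0.50, SE 0.12, adjusted p = 0.052), and passed in 6 of 16 alternatives, without control 3 (0.0091) among them.

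For most of the tested members, though not all, base composition moved with the direction of the difference. The annotated transcripts of FZD2, FZD8 and WNT7B held 64.9, 64.6 and 63.0% G and C, and these members had negative log2 changes, as did FZD7 at 52.8%. FZD6, LRP6 and DKK1 held 38.4, 40.2 and 43.5% and had positive ones, whereas WNT9A, at 59.5%, was higher with TGF-β1. After removing each library's trend with GC content and length, the log2 change was 0.078 for FZD2, which turned its direction, 0.074 for FZD6 and 0.072 for LRP6. The same step gave -0.33 for FZD8 (adjusted p = 0.04), -0.35 for WNT7B (0.056) and 0.87 for WNT9A (0.0013). DKK1 moved little, to 0.39 (0.071), and FZD7 stood at -0.15 (0.34). The part of base composition in the differences was not tested beyond these values.

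**Figure D3:**
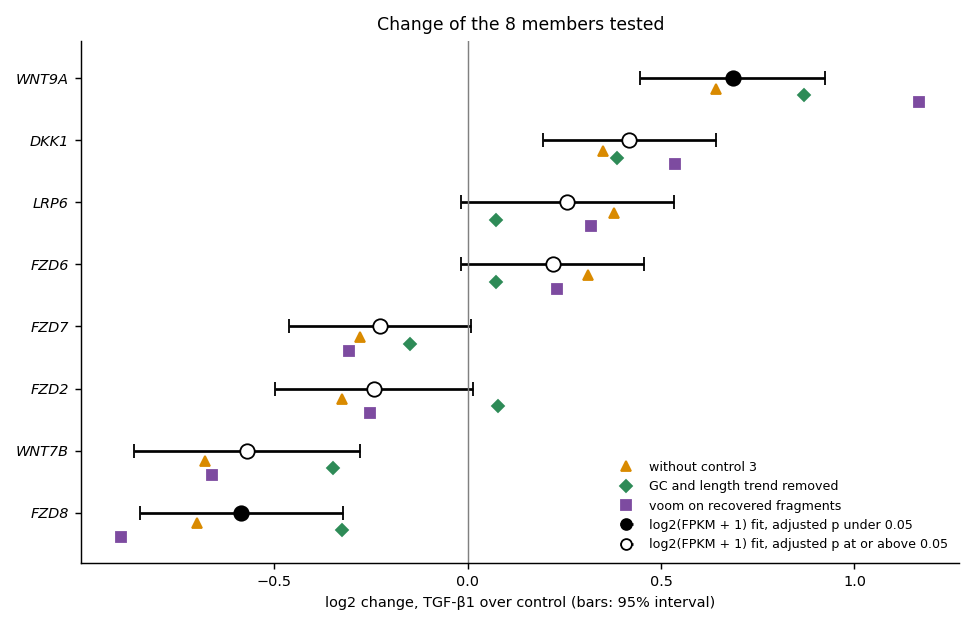
log2 change of TGF-β1 over control for the 8 members tested (x axis; black points with 95% intervals, filled where adjusted p is under 0.05), with the value without control 3, after removal of the GC and length trend, and by voom on fragments. WNT9A and FZD8 keep their sides of 0 in each, and FZD2 changes side once the GC and length trend is removed.

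Of the targets, DKK1 stood at 4.36, 4.29 and 4.50 FPKM with TGF-β1, against 3.52, 2.94 and 2.67 FPKM in controls. The gene lies on chromosome 10 at 52314296 to 52318042. The groups did not overlap, and here control 3 was the control farthest from the TGF-β1 libraries. The means were 4.39 ± 0.109 and 3.05 ± 0.437 FPKM, a ratio of 1.44, from 669 and 457 fragments (log2 change 0.42, SE 0.10, 95% interval 0.19 to 0.64, adjusted p = 0.058). DKK1 therefore did not pass; it did in 3 of 16 alternatives, without control 3 (adjusted p = 0.027), with protein-coding genes alone (0.023) and with scaling to total fragments (0.04). Its exons share 9.61% of their bases with the antisense gene PRKG1-AS1, which stayed at or under 0.0641 FPKM.

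AXIN2, on chromosome 17 at 65528563 to 65561647, was near the detection limit in both groups. It had 14, 19 and 10 fragments with TGF-β1 and 10, 14 and 14 in controls, or 0.119 ± 0.0359 and 0.107 ± 0.0183 FPKM. These ranges overlap throughout, and without a filter its adjusted p was 0.91. Of its exon bases 25.2% are also annotated as exons of AC004805.1, a gene on the same strand that was listed at 0. The sources do not state whether fragments on shared bases were counted, so the AXIN2 level may be understated in both groups alike.

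Leaving out control 3 raised the number of members called to 6 of 8: WNT9A, DKK1, FZD6 and LRP6 higher and WNT7B and FZD8 lower. In that setting 28.9% of all genes tested were called. For 6 of the 8 tested members control 3 was the control library nearest the TGF-β1 mean; the exceptions were WNT9A and DKK1. At an unadjusted p under 0.05 there were 4 members, WNT9A, FZD8, WNT7B and DKK1, against 25.1% of all genes tested. These were also the members whose groups did not overlap, 2 higher and 2 lower, where 14.6% of all genes tested were higher and 12.5% lower without overlap. Since the members were chosen with earlier results of these data known, these shares do not test them as a set.

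The other genes of the pathway were taken from lists by role, 104 genes with the members included. Of these 11 had 0 fragments in every library and 56 were tested; 1 rose and 2 fell. By voom 6 passed, in a setting that called 8.24% of all genes. Without the members, 48 were tested and MYC alone passed, at a share near the 2.44% of all genes tested. Without control 3, 16 of the 56 passed, where 28.9% of all genes did: the 6 members named above, MYC, CCND1, ROR1, and CTNNBIP1, DVL2, GSK3B, KREMEN2, PORCN, PYGO2 and TNKS2 (adjusted p 0.0095 to 0.046 for the last 7). After removal of the GC and length trend 8 passed: WNT9A, FZD8, CCND1, ROR1, WNT5B (0.0071), LGR4 (0.017), TLE1 (0.04) and DVL1 (0.04). PYGO2 and DVL1 are named because their calls turned. The median log2 change of the 56 was 0.017, against 0.012 over all genes tested.

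**Figure D4:**
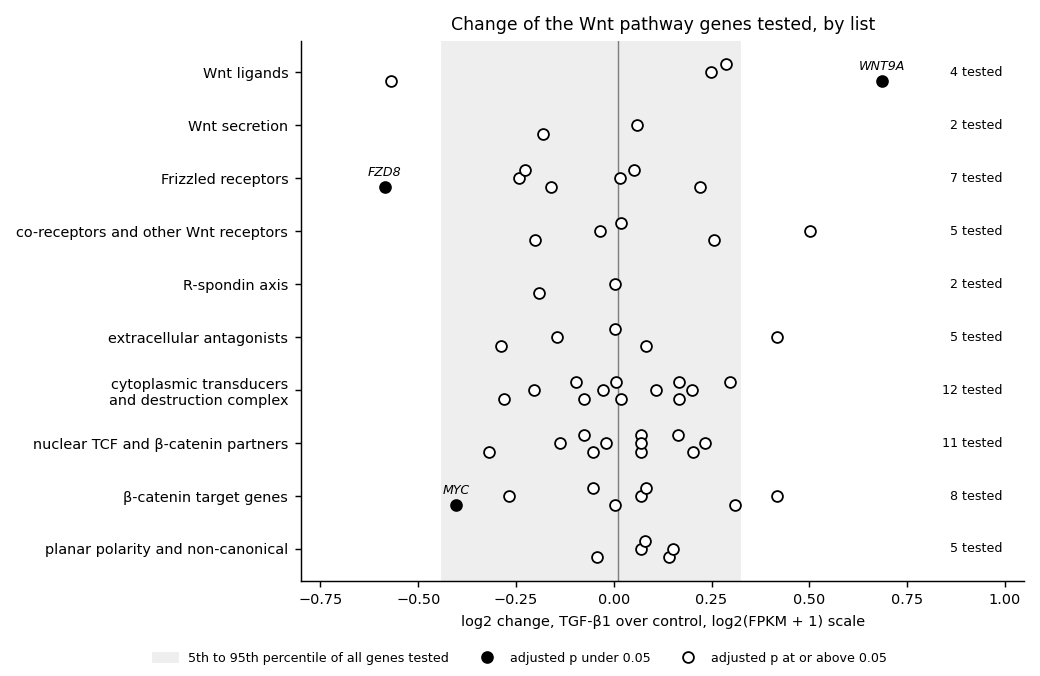
log2 change of TGF-β1 over control for the tested genes of each pathway list (x axis, log2(FPKM + 1) scale; a point per gene, filled where adjusted p is under 0.05; some genes are in more than 1 list). The shaded band runs from -0.44 to 0.32, the 5th to 95th percentile of all genes tested, and WNT9A, FZD8 and MYC are the filled points.

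β-catenin target genes did not move in 1 direction. Of 15 listed 8 were tested, 0 rose and MYC fell, with a median of 0.037 and 5 positive values. Over all genes tested 2.44% passed. At an unadjusted p under 0.05 there were 3 targets, where 25.1% of all genes tested were. By voom 2 passed, where 8.24% of all genes did. MYC, a growth-promoting transcription factor, stood at 25.3 ± 1.58 FPKM with TGF-β1 and 33.7 ± 1.69 FPKM in controls (log2 change -0.40, adjusted p = 0.049). The MYC call was lost without any library but control 3 (adjusted p 0.079 to 0.18), at a pseudocount of 0.1 (0.051), after removal of the GC and length trend (0.053), without trend and robust estimation (0.066) and with no filter (0.25). CCND1, which encodes cyclin D1, stood at 155 ± 4.04 FPKM with TGF-β1 and 125 ± 6.12 FPKM in controls (log2 change 0.31, adjusted p = 0.10), and passed in 3 of 16 alternatives, without control 3 (0.016), after removal of the GC and length trend (0.025) and by voom (0.044). NOTUM, a secreted enzyme that inactivates Wnt proteins, named after its values were seen, stood at 4.14 ± 0.990 and 3.82 ± 0.607 FPKM (adjusted p = 0.75). LGR5, RNF43 and NKD1, listed targets named after their values were seen, stayed under 0.05 FPKM in every library. Other listed targets were higher. SP5 averaged 0.856 FPKM with TGF-β1 and 1.26 FPKM in controls, LEF1 1.67 and 1.54 FPKM, and TCF7 1.46 and 1.54 FPKM (adjusted p = 0.27, 0.70 and 0.78). ZNRF3 and NKD2, given below, are on this list too.

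Among the receptors and extracellular regulators, 0 of 5 co-receptor and alternative receptor genes passed in limma, with ROR1 at an unadjusted p under 0.05 and called by voom and in 5 other alternatives. Over all genes tested, 2.44% passed in limma and 25.1% were at an unadjusted p under 0.05. LGR4, an R-spondin receptor, stood at 17.4 ± 0.667 FPKM with TGF-β1 and 20.1 ± 2.11 FPKM in controls (adjusted p = 0.24), and ZNRF3, a ligase that removes Frizzled from the membrane, at 2.86 ± 0.159 and 2.84 ± 0.143 FPKM (adjusted p = 0.98). These were the 2 genes tested of 9 in the R-spondin axis, and 0 passed in limma or voom or at an unadjusted p under 0.05. Of 15 antagonists 5 were tested and 0 passed in limma or voom, with 1, DKK1, at an unadjusted p under 0.05. KREMEN2 and KREMEN1, which encode DKK receptors, stood at 5.80 ± 0.958 and 5.03 ± 0.328 FPKM with TGF-β1, against 7.35 ± 1.58 and 5.68 ± 0.467 FPKM in controls (adjusted p = 0.25 and 0.34). DKK3, a secreted DKK relative named after its values were seen, was high and nearly equal, at 76.5 ± 0.963 FPKM with TGF-β1 and 76.4 ± 1.94 FPKM in controls (95% interval of the log2 change -0.19 to 0.20).

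Inside the cell, 0 of 12 transducers and destruction-complex genes passed in limma or voom. At an unadjusted p under 0.05 were 2 of them, where 25.1% of all genes tested were. DVL2, a Dishevelled adaptor, stood at 12.8 ± 0.468 FPKM with TGF-β1 and 15.9 ± 1.82 FPKM in controls (log2 change -0.28, adjusted p = 0.14). TNKS2, a tankyrase that marks AXIN for destruction, stood at 13.5 ± 0.234 and 10.9 ± 2.29 FPKM (log2 change 0.30, adjusted p = 0.18), and the kinase gene GSK3B at 7.97 ± 0.464 and 6.83 ± 0.841 FPKM (adjusted p = 0.24). CTNNB1, which encodes β-catenin and was named after its values were seen, stood at 34.8 ± 1.68 and 32.2 ± 1.81 FPKM (95% interval of the log2 change -0.09 to 0.31). Of 11 nuclear partners tested 0 passed in limma or voom. Again beside 25.1% of all genes tested, 2 partners were at an unadjusted p under 0.05. They were CTNNBIP1, an inhibitor that keeps β-catenin from TCF factors, at 37.3 ± 0.300 FPKM with TGF-β1 and 47.1 ± 6.67 FPKM in controls (adjusted p = 0.13), and the co-repressor TLE1, at 10.5 ± 0.203 and 9.00 ± 0.219 FPKM (adjusted p = 0.17). PYGO1, a β-catenin co-activator, stood at 1.25 ± 0.194 and 0.912 ± 0.101 FPKM (adjusted p = 0.21).

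The secretion genes PORCN, which encodes the enzyme that lipidates Wnt proteins, and WLS, their carrier, did not pass in limma or voom or at an unadjusted p under 0.05. PORCN stood at 4.36 ± 0.451 FPKM with TGF-β1 and 5.16 ± 1.24 FPKM in controls (adjusted p = 0.44), and WLS at 6.70 ± 0.240 and 6.39 ± 0.223 FPKM (adjusted p = 0.68). Of the planar polarity and non-canonical genes, 0 of 5 tested passed in limma or voom or at an unadjusted p under 0.05. VANGL1, a core polarity protein, stood at 13.3 ± 0.113 and 11.9 ± 0.438 FPKM (adjusted p = 0.27), CELSR2, an atypical cadherin, at 3.18 ± 0.304 and 2.80 ± 0.411 FPKM (adjusted p = 0.42), and the kinase NLK at 4.52 ± 0.0549 and 4.23 ± 0.236 FPKM (adjusted p = 0.57).

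Some pathway genes lay below the filter but above a mean of 0.1 FPKM, 18 in all, AXIN2 among them. In 5 of these the groups did not overlap, against 13.0% of 6772 such genes in the whole table; they are named because they are the ones without overlap. NKD2, an inhibitor of Dishevelled, stood at 0.615, 0.621 and 0.306 FPKM with TGF-β1, against 1.10, 1.49 and 0.915 FPKM in controls, from 102 and 229 fragments. FZD10 stood at 0.527, 0.546 and 0.398 FPKM, against 0.191, 0.337 and 0.211 FPKM. WNT7A, the closest relative of WNT7B, stood at 0.694, 0.920 and 0.929 FPKM, against 0.654, 0.367 and 0.350 FPKM, so it was higher with TGF-β1 where WNT7B was lower. DAAM1, a formin of the polarity route, averaged 0.982 FPKM with TGF-β1 and 0.703 FPKM in controls, and WNT2B 0.412 and 0.502 FPKM. None of the 5 passed in limma when all genes above 0 were tested (adjusted p 0.38 to 0.62); NKD2, FZD10 and WNT7A were at an unadjusted p under 0.05 there.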

How the data were processed

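RNA from 6 T24 libraries was sequenced as 150 bp read pairs. Per the submitters' processing notes, reads were aligned with HISAT2 2.0.5 to hg38 and counted with featureCounts 1.5.0-p3; annotation release and strand setting: not given in the sources used here. The deposited values are FPKM per gene, made by the authors, and the library files hold the same values as the joint table. The 11 entries with mapping totals were left out.

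Exon lengths of GENCODE 29 on GRCh38 turned 100% of 98052 values under 1000 fragments into whole fragments to within 0.05, for rows with a unique symbol. The FPKM denominators were 0.964 to 1.04 times the recovered totals, so the deposited values carry a scaling between libraries.

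limma 3.58.1 in R 4.3.3 was run on log2(FPKM + 1) with trend and robust estimation over genes with at least 1 FPKM in 3 libraries, with treatment as the only term, and was tested on simulated data. Libraries of a group differed by more than sampling noise (chi-square over degrees of freedom 7.56 to 36.1). Samples were grouped by title. The members and lists were chosen with earlier results of these data known. All 10 members are named, and of each list the genes that passed or, with fewer than 3, those of smallest p up to 3. There were 16 alternatives; the GC and length trend and scaling to total fragments were added after seeing the data. Promoter windows come from RefSeq, whose table held 4 of the 10 members. A gene of the treatment check is not reported here.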

Additional observations from a re-analysis of the deposited data

How the results depend on the processing

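The count of members past the threshold, 2, was 0 without the low-level filter, where 0.053% of 28285 genes passed the same threshold. In that fit 4 members were at an unadjusted p under 0.05. The share of all genes at an unadjusted p under 0.05 was counted in the main fit alone (25.1%). The member count was 4 with protein-coding genes alone, 4 with scaling to total fragments, and 1 to 6 on leaving out each library, the 6 without control 3. The pathway count, 3, was 0 with no filter (14 at an unadjusted p under 0.05), 6 by voom, 5 with the replicate number as a replicate block, 6 with protein-coding genes alone, 8 with the GC and length trend removed, 6 with scaling to total fragments, and 1 to 16 on leaving out each library. The target count, 1, was 0 at a pseudocount of 0.1 or without trend and robust estimation (3 at an unadjusted p under 0.05 in each), 0 with no filter (4), 2 by voom, 2 with protein-coding genes alone, 2 with scaling to total fragments, and 0 to 3 on leaving out each library. The cause of these shifts was not tested. Settings also moved the share of all genes called, from 2.44% to 8.24% by voom, 8.42% with protein-coding genes alone, 6.75% under the block, 4.45% with the GC and length trend removed (289 higher and 213 lower, against 130 and 147) and 3.54% with scaling to total fragments, and 1.09 to 28.9% on leaving out each library, the highest without control 3. FZD2 was the only tested member whose sign turned (log2 change 0.078 with the GC and length trend removed). Same-numbered libraries deviated together in numbers 1 and 3 but not 2 (correlations 0.25, 0.17 and -0.071). Of 6 libraries, 4 correlated best with their own number. These values do not settle whether the numbers are pairs, and the main fit left the number out. The block called 3 members, WNT7B (adjusted p = 0.014) beside WNT9A and FZD8, where it called 6.75% of all genes against 2.44% in the main fit. Depth limits WNT5A and AXIN2, with 42 and 81 fragments over all libraries.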
